A study of Mus musculus with 4 samples.

Results

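Cd1d1 and Cd1d2 are the 2 mouse genes of the CD1 family of lipid-presenting molecules, and they were taken by identifier from a table of 56239 genes (Cd1d1, ENSMUSG00000028076, and Cd1d2, ENSMUSG00000041750). Both passed the filter on low counts, which kept 15070 genes. Transcripts were measured by RNA-seq in the double-positive (DP) thymocytes, CD4+CD8+, of C57BL/6 mice, which had been sorted from thymus. The KO mice were Cd4-cre;CHAF1bfloxp/floxp, so that Cre recombinase under Cd4 control deletes Chaf1b, which encodes a subunit of chromatin assembly factor 1. The WT mice were CHAF1bfloxp/floxp and carried the same floxed alleles without Cre, so an effect of Cre itself and an effect of the deletion cannot be told apart. Each genotype had 2 libraries, and the labels give neither the age of the mice nor the number of mice per library.

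CD1d is a class I-like molecule that pairs with beta-2-microglobulin, holds a lipid between its alpha-1 and alpha-2 domains and shows it to invariant natural killer T (iNKT) cells. It is assembled in the endoplasmic reticulum, goes to the cell surface, is taken up through adaptor complexes and reaches the lysosome, where lipid-transfer proteins exchange its cargo. In the thymus DP cells themselves carry the CD1d that selects iNKT precursors. Mice have a duplicated locus in which Cd1d1 gives most of this function, and Cd1d2 of the C57BL/6 strain has a disrupted reading frame.

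Both genes lie on chromosome 3 (GRCm38) and point towards each other. Cd1d2 occupies chr3:86986551-86989780 on the plus strand and is annotated as a polymorphic pseudogene. Cd1d1 occupies chr3:86995834-86999441 on the minus strand and is annotated as protein coding. They are 6053 bases apart, and no counted exon of either overlaps an exon of another gene. Their coding sequences align over 1008 bases with 32 mismatches and 1 gap, an identity of 96.7%. Exon 3, which encodes the alpha-2 domain, is shown because it separates the copies best: it has 17 mismatches in 279 bases, an identity of 93.9%. Lines give the coding strand 5′ to 3′ from GENCODE M21 transcripts, Cd1d1 at chr3:86998072-86998350 and Cd1d2 at chr3:86987543-86987821, with the bases that differ in capitals.
Cd1d1 exon 3: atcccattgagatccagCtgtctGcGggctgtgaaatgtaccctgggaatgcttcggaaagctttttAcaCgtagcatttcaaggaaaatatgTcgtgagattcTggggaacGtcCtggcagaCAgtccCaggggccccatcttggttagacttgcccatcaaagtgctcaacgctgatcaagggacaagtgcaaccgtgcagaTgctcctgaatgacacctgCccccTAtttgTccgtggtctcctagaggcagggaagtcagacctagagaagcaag
Cd1d2 exon 3: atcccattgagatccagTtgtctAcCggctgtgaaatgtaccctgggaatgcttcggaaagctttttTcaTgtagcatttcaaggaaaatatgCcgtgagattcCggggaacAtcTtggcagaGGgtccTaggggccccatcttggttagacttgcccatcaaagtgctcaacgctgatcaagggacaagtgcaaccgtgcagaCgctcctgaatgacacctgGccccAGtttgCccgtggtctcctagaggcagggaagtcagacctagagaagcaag

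Exon 4, which encodes the alpha-3 domain, is shown for the opposite reason, since it is nearly the same in both genes (98.9% identical) and also holds the gap. It has 279 bases in Cd1d1 (chr3:86997338-86997616) and 278 in Cd1d2 (chr3:86988278-86988555), with an unbroken run of 202 identical bases. Capitals again mark bases that differ, and in Cd1d1 also the base that Cd1d2 lacks.
Cd1d1 exon 4: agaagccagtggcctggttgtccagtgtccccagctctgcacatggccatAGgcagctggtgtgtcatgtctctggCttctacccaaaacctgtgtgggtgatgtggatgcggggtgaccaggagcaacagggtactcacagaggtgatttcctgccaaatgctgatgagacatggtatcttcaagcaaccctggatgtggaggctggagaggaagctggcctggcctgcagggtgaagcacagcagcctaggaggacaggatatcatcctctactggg
Cd1d2 exon 4: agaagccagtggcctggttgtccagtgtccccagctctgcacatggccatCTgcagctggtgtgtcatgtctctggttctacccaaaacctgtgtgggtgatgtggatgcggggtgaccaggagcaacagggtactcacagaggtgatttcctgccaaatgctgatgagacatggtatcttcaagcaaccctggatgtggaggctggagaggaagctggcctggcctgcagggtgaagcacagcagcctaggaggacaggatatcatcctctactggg

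Read from the start codon, the annotated Cd1d2 coding sequence reaches a stop at base 712, within exon 4 and after 237 codons, whereas the Cd1d1 coding sequence of 1008 bases has no stop up to its end. By the default of the counting program, which the header shows unchanged, reads that align equally well to both genes are not counted, and their number depends on read length, which is not given in the sources used here. Of the 100-base windows of the transcripts whose exons are shown, 14.6% of 1847 in Cd1d1 and 18.8% of 1428 in Cd1d2 occurred exactly in the other gene. With 150-base windows the shares were 6.62% in Cd1d1 and 8.64% in Cd1d2, and with 250-base windows, the lower end of the fragment size selected per the labels, none was shared. The windows are unbroken, whereas paired reads may cover only the ends of a fragment, so they do not bound the number of reads left uncounted. None of the windows of 50 to 250 bases occurred in a transcript of any other gene of GENCODE M21. The part of the fragments lost in this way was not measured, so the levels of both genes are uncertain to that extent.

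The libraries held 21068760 to 27369874 counts. A count of 0 would allow up to 3 counts, or 0.110 to 0.142 CPM (counts-per-million), a floor that covers counting error only and lies far below every value of the members. Within each genotype replicate 1 was female and replicate 2 male by its transcripts, since Xist had 47301 counts in KO and 47368 in WT replicate 1, against 12 in KO and 8 in WT replicate 2. Differences within a sex are therefore given as the female pair and the male pair, beside a fit with sex as a term; since sex is here the same as the replicate number, sex and any batch that follows the number cannot be told apart. The targeted transcript was lower in KO, with Chaf1b at 12.2 and 14.8 CPM in KO and 27.9 and 31.7 CPM in WT replicates 1 and 2. KO replicate 1 stood apart, with 3.30% of its counts from mitochondrially encoded genes and 4.83% from ribosomal protein genes, against 2.03% and 3.50% in KO replicate 2, 1.33% and 2.79% in WT replicate 1 and 1.45% and 2.84% in WT replicate 2.

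Cd1d1 transcripts were lower in KO DP cells, at 65.0% of the WT mean. Cd1d1 had 1372 and 1744 counts in KO replicates 1 and 2, against 2460 and 3219 counts in WT replicates 1 and 2. Scaled to library size with TMM factors these were 60.5 and 80.7 CPM in KO and 104 and 114 CPM in WT. Both KO libraries lay below both WT libraries, with KO replicate 1 lowest and WT replicate 2 highest. The means were 70.6 ± 14.3 CPM in KO and 109 ± 6.89 CPM in WT (SD, n = 2). The gap between the KO replicates, 1 female and 1 male, was wider than that between the WT replicates.

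Cd1d2 transcripts were lower in KO, at 37.0% of the WT mean. Cd1d2 had 116 and 268 counts in KO replicates 1 and 2, against 578 and 652 counts in WT replicates 1 and 2. In CPM these were 5.12 and 12.4 in KO and 24.4 and 23 in WT. Again both KO libraries lay below both WT libraries, the KO replicates differed from each other by more than 2-fold and the WT replicates nearly coincided. The means were 8.76 ± 5.15 CPM in KO and 23.7 ± 0.984 CPM in WT (SD, n = 2). Across all tested genes 28.4% had both KO libraries below both WT libraries, so the lack of overlap at both members is not in itself unusual in this comparison.

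**Figure D1:**
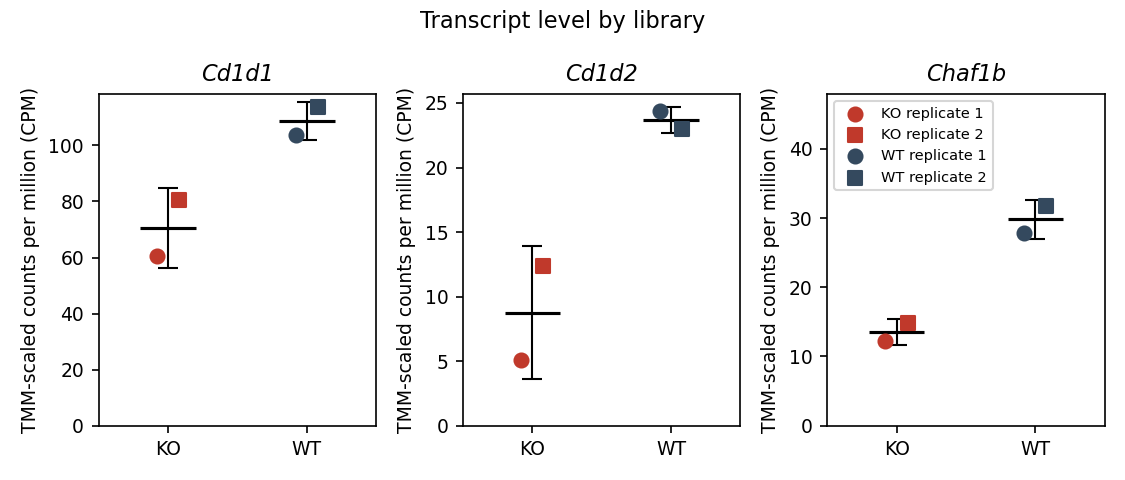
TMM-scaled CPM (y axis, from 0) of Cd1d1, Cd1d2 and the targeted gene Chaf1b in KO and WT libraries (x axis); circles are replicate 1, squares replicate 2, horizontal lines the means and bars the SD (n = 2). In each panel both KO libraries lie below both WT libraries, and for Cd1d2 the KO replicates are spread from 5.12 to 12.4 CPM.

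Whether the differences passed the threshold, an adjusted p of 0.05 over all 15070 genes, depended on the fit. In edgeR's quasi-likelihood test without a sex term neither member was called: the log2 fold change, KO minus WT, was -0.62 ± 0.16 (SE) for Cd1d1 and -1.44 ± 0.39 for Cd1d2, each with an adjusted p of 0.267. That test called 1 gene higher and 0 lower, or 0.00664% and 0% of all genes, although 2535 genes had an unadjusted p under 0.05, both members among them. In the fit with the sex term both members fell: Cd1d1 by 0.64 ± 0.14 (SE) on the log2 scale (edgeR adjusted p = 0.0371) and Cd1d2 by 1.54 ± 0.28 (edgeR adjusted p = 0.0208). This fit called 2.20% of all genes as lower, and it rests on 1 residual degree of freedom. Its 95% intervals were -0.94 to -0.33 for Cd1d1 and -2.14 to -0.94 for Cd1d2. Among the 331 genes called lower, 22 had a larger fall than Cd1d2 and 317 a larger fall than Cd1d1. DESeq2 without the sex term, run on all genes with a count, called both members lower (adjusted p = 0.0380 for Cd1d1 and 0.00615 for Cd1d2). It called 210 genes higher and 310 lower, or 0.807% and 1.19% of 26019. Only 11337 of the 26019 had an adjusted p, so the shares among genes that could be called were larger. On the same 15070 genes as edgeR, DESeq2 also called both (adjusted p = 0.0422 for Cd1d1 and 0.0143 for Cd1d2). There it called 177 genes higher and 285 lower, and 10687 genes had an adjusted p. The limma-voom test called neither member (adjusted p = 0.252 for both). Without the filter on low counts edgeR called both lower, also without the sex term (adjusted p = 0.00114 for Cd1d1 and 3.90e-09 for Cd1d2). That setting called many more genes of every kind, 627 higher and 838 lower, against 1 and 0 with the filter. Fewer cells with the transcript and less transcript per cell cannot be told apart in these bulk libraries.

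The differences had the same sign in both sexes and were larger in the female pair. For Cd1d1 the female pair differed by -0.78 in log2 CPM, KO minus WT, and the male pair by -0.49. For Cd1d2 the female pair differed by -2.24 and the male pair by -0.89. This order is not particular to the members: Spo11 (-1.82 and -0.93) and Myb (-1.11 and -0.58), for example, also differed more in the female pair. H2-M3 did not (-0.63 and -0.68). The share of all tested genes with the larger difference in the female pair was not counted. Each pair is 1 KO and 1 WT library, so the difference between the sexes was not tested. Without KO replicate 1, the library with the high mitochondrial share, the log2 fold changes shrank to -0.42 for Cd1d1 and -0.93 for Cd1d2, and without KO replicate 2 they were -0.85 and -2.21. Leaving mitochondrial and ribosomal protein genes out of the scaling left them at -0.62 and -1.43.

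**Figure D2:**
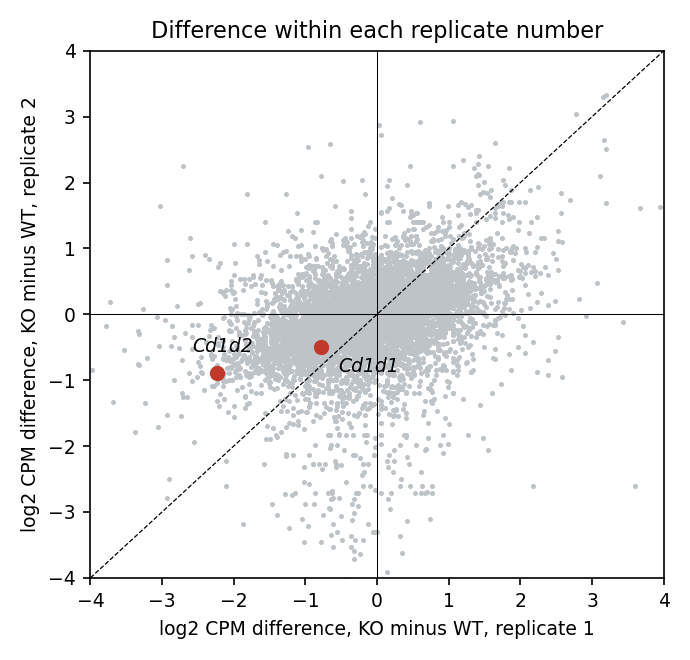
Differences of log2 CPM, KO minus WT, for replicate 1 (female pair, x axis) and replicate 2 (male pair, y axis); each grey point is a tested gene, 21 genes lie beyond the axes at 4, and the dashed line marks equal differences. Cd1d1 (-0.78, -0.49) and Cd1d2 (-2.24, -0.89) are lower in both pairs and lie on the side of the larger female difference.

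The share of the counts that fell to Cd1d2 was lower in both KO libraries. Cd1d2 took 7.80% of the counts of both genes together in KO replicate 1 (116 of 1488; exact 95% interval 6.48 to 9.28%) and 13.3% in KO replicate 2 (268 of 2012; 11.9 to 14.9%). In WT it took 19.0% in replicate 1 (578 of 3038; 17.6 to 20.5%) and 16.8% in replicate 2 (652 of 3871; 15.7 to 18.1%). This share is taken within a library and so does not depend on scaling; the intervals cover counting error only. The KO libraries had the lower shares and the groups did not overlap, with means of 10.6 ± 3.91% in KO and 17.9 ± 1.54% in WT (SD, n = 2). A two-sided exact permutation test over the 4 libraries gave p = 0.333, the smallest that 2 libraries against 2 can give. With the counts of both genes summed, which keeps each counted fragment whichever copy it came from, KO had 65.6 and 93.1 CPM and WT 128 and 137 CPM. The summed log2 fold change was -0.74 ± 0.18 (SE; edgeR adjusted p = 0.267) without the sex term and -0.76 ± 0.15 (edgeR adjusted p = 0.0275) with it.

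**Figure D3:**
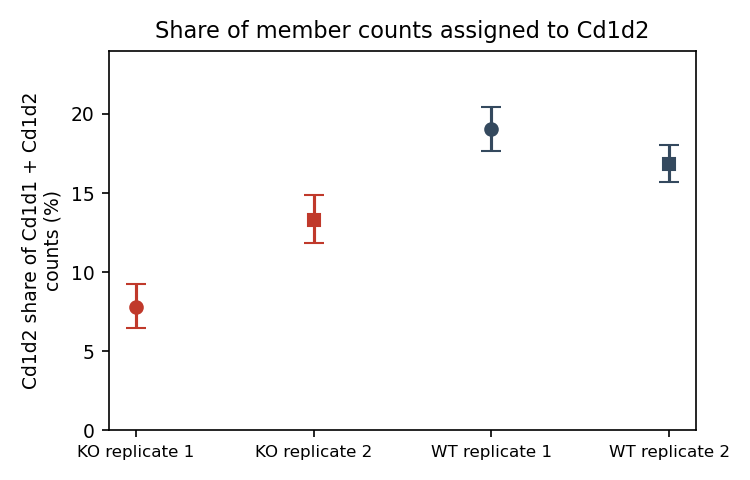
Share of the counts of Cd1d1 and Cd1d2 together that was assigned to Cd1d2 (y axis, percent) in each library (x axis); bars are exact 95% binomial intervals and cover counting error only. The KO libraries stand at 7.80% and 13.3%, below the WT libraries at 19.0% and 16.8%.

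Per length, Cd1d1 was the more abundant member in both genotypes. Divided by the exon length in the deposited table (2570 bases for Cd1d1, which includes exons of retained-intron transcripts, and 1527 for Cd1d2), its level was 27.5 CPM per kb in KO and 42.3 in WT, and that of Cd1d2 was 5.74 CPM per kb in KO and 15.5 in WT. Cd1d1 stood above 86.6% of the tested genes in KO and 92.1% in WT on this scale, and Cd1d2 above 52.7% in KO and 75.4% in WT. Divided instead by the number of 100-base windows not shared between the copies, the levels per 1000 such windows were 44.7 CPM in KO and 68.9 CPM in WT for Cd1d1, and 7.56 CPM in KO and 20.4 CPM in WT for Cd1d2. The order of the genes was thus the same with both divisors.

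All 19 genes listed for DP thymocytes passed the filter, which by itself does not identify DP cells. KO lay wholly above WT for 11 and wholly below for 4, against 27.9% and 28.4% of all tested genes. Cd4, the co-receptor for class II, had 2066 and 1896 CPM in KO and 1814 and 1887 CPM in WT. With the sex term 0 rose and 1 fell, which was Spo11, known from meiotic recombination and transcribed by DP cells too (83.4 and 172 CPM in KO, 295 and 328 CPM in WT; log2 fold change -1.37, edgeR adjusted p = 0.0172). Other cells of the thymus that carry CD1d, or could be in the sort, were checked through marker lists, summed as CPM of the library total. The sums include listed genes that did not pass the filter and use no TMM factors, whereas CPM of single genes are TMM-scaled. Of 9 B cell markers 5 passed the filter, and the sum over the list was 31.9 and 34.2 in KO and 19.0 and 25.7 in WT. Most of that sum was Cd79b, a signalling chain of the B cell receptor and the 1 gene of the list that rose with the sex term (30.6 and 28.8 CPM in KO, 15.7 and 19.6 CPM in WT), while its partner chain Cd79a had 0.706 and 0.879 CPM in KO and 1.14 and 2.12 CPM in WT. Of 11 macrophage and granulocyte markers 7 passed, with sums of 24.7 and 30.4 in KO and 33.9 and 32.1 in WT, and S100a8 and Elane were at 0 in every library. Its members did not move together: Lyz2 had 1.32 and 4.44 CPM in KO and 5.70 and 5.29 CPM in WT, whereas Csf1r had 2.56 and 1.34 CPM in KO and 0.591 and 0.811 CPM in WT, and the median log2 fold change of the list was 0.21 with the sex term, with 0 calls. Of 10 dendritic markers 3 passed (sums of 9.80 and 10.6 in KO, 8.05 and 11.0 in WT), and of 11 epithelial and stromal markers 4 passed (181 and 216 in KO, 182 and 213 in WT). Most of the latter sum was Pecam1 (145 and 167 CPM in KO, 141 and 159 CPM in WT). The epithelial marker Epcam had 6.00 and 7.73 CPM in KO and 6.29 and 7.62 CPM in WT. The sums of NK and gamma-delta markers, 5 of 10 passing and Klrd1, Ncr1 and Gzmb at 0, were 58.8 and 39.6 in KO and 28.7 and 24.2 in WT, and 1 gene rose with the sex term, Gzma, which encodes a granule protease. Mature single-positive markers, 11 of 12 passing, came to 389 and 336 in KO and 277 and 259 in WT. Of these, 2 genes rose with the sex term, Foxo1 and Ly6c1, and Ly6c1 belongs to a family with near-identical copies and is uncertain. The median log2 fold change of the mature list was 0.49 with the sex term, while Gimap3 (-0.67) and Klf2 (-0.08) were negative and not called. The marker genes singled out here were chosen after their values were seen. Liver markers, 10 of 10 passing, came to 418 and 9.68 in KO and 447 and 98.9 in WT, highest in replicate 1 of both genotypes. With the sex term 1 liver marker fell, Ttr (8.42 and 0.602 CPM in KO, 15.4 and 4.41 CPM in WT, edgeR adjusted p = 0.0428). Over all tested genes the fit with the sex term called 1.01% higher and 2.20% lower. The summed levels of the B cell, NK and gamma-delta, and mature lists were thus higher in both KO libraries than in both WT libraries, and the summed level of the macrophage list was lower. The part of these cells in the fall of Cd1d1 and Cd1d2 was not tested.

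None of the genes listed for CD1d assembly passed either edgeR test. With the sex term the background was 1.01% of all genes called higher and 2.20% called lower, with a median log2 fold change of -0.01. Of the 12 genes listed 11 were tested (Ero1a was not matched by symbol), with a median of 0.20, and 9 of the 11 had both KO libraries above both WT libraries, where 27.9% of all tested genes did. The highest by level were Ganab, the glucosidase II subunit that trims new glycoproteins (311 and 283 CPM in KO, 284 and 282 CPM in WT), and Pdia3, the oxidoreductase ERp57 that works with calnexin (268 and 248 CPM in KO, 225 and 224 CPM in WT). B2m, which encodes the beta-2-microglobulin light chain of CD1d and is named outside the naming rule after its values were seen, had 264 and 188 CPM in KO and 173 and 154 CPM in WT. Its log2 fold change of 0.45 did not pass (adjusted p = 0.130 in the sex-term edgeR fit).

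Genes that carry CD1d through the cell did not pass either. All 20 listed adaptor and endosomal genes were tested, 0 rose and 0 fell in both tests, and the median log2 fold change was 0.12 with the sex term. Both KO libraries were above both WT libraries for 10 of them and below for 1, against 27.9% and 28.4% of all tested genes. Ap3s1 and Ap3d1, subunits of the AP-3 adaptor that brings mouse CD1d to the lysosome, were the most abundant. Ap3s1 had 302 and 272 CPM in KO and 254 and 267 CPM in WT. Ap3d1 had 246 and 217 CPM in KO and 238 and 219 CPM in WT, so its groups overlapped.

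Among the genes of lysosomal lipid exchange a single one was called. All 19 were tested, with a median of 0.17 in the fit with the sex term. That fit called 1 higher and 0 lower, and the test without the term called 0. KO lay wholly above WT for 11 and wholly below for 1, against 27.9% and 28.4% of all tested genes. Gm2a, the GM2 activator, a lysosomal protein that lifts glycolipids out of membranes, had 38.9 and 23.6 CPM in KO and 14.5 and 13.6 CPM in WT. It rose by a log2 fold change of 1.11 ± 0.19 (SE; adjusted p = 0.0204 in the sex-term edgeR fit, 0.267 without it), the opposite direction to both members, and the increase was larger in the female pair (1.42) than in the male pair (0.79). Psap, the precursor of the saposins that load CD1d, named outside the rule after its values were seen, had 1086 and 1104 CPM in KO and 1018 and 1070 CPM in WT (adjusted p = 0.882 in the sex-term edgeR fit).

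The synthesis of glycolipids and ether lipids, from which self ligands of iNKT cells are drawn, gave no call among the 14 tested of 17 listed genes. The median was -0.07 with the sex term. KO lay wholly above WT for 2 genes and wholly below for 2, against 27.9% and 28.4% of all tested genes. Ugcg, the glucosylceramide synthase, had 96.1 and 137 CPM in KO and 116 and 123 CPM in WT, and Cers6, a ceramide synthase, 116 and 120 CPM in KO and 136 and 118 CPM in WT. For both genes the groups overlapped.

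No listed transcription factor with a reported or possible role at CD1D promoters, human or mouse, passed. All 11 were tested, and the median was 0.02 with the sex term. KO lay wholly above WT for 3 and wholly below for 3, against 27.9% and 28.4% of all tested genes. Ets1, the founder of the Ets family, had 2181 and 2278 CPM in KO and 1826 and 1858 CPM in WT, and Ikzf1, which encodes Ikaros, 1181 and 927 CPM in KO and 821 and 825 CPM in WT. Both were above WT in both KO libraries, with adjusted p of 0.539 for Ets1 and 0.361 for Ikzf1 in the sex-term edgeR fit. Elf1, an Ets factor described at the mouse Cd1d1 promoter and named outside the rule after its values were seen, had 398 and 440 CPM in KO and 415 and 417 CPM in WT.

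The list of other class I and class I-like genes showed no call in either direction among 15 tested of 16 listed, with a median of -0.07 with the sex term. It also holds B2m, Nlrc5, Tap1, Tap2 and Tapbp, which encode no class I heavy chain. Of the 15, 6 had both KO libraries below both WT libraries (28.4% of all tested genes) and 3 had both above (27.9%). The 6 were H2-M3, H2-Q4, H2-T22, H2-T23, Mr1 and Tap1, and the 3 were B2m, H2-Q7 and Tapbp. The most negative log2 fold change among the 15 was that of H2-M3, a presenter of formylated peptides named outside the rule after its values were seen, with 9.0 and 10.7 CPM in KO and 14.0 and 17.2 CPM in WT (log2 fold change -0.66, adjusted p = 0.0853 in the sex-term edgeR fit). H2-Q4, named likewise and uncertain because its family has near-identical copies, had 63.1 and 94.6 CPM in KO and 107 and 112 CPM in WT (log2 fold change -0.50, adjusted p = 0.0926 in the sex-term edgeR fit). Mr1, which presents vitamin metabolites to MAIT cells, precursors of which are also selected on DP cells, had 202 and 217 CPM in KO and 235 and 234 CPM in WT (log2 fold change -0.16, adjusted p = 0.577 in the sex-term edgeR fit). Tap2, a chain of the peptide transporter, had 192 and 235 CPM in KO and 211 and 236 CPM in WT. Per length Mr1 stood close to Cd1d1 in WT cells, with 35.0 CPM per kb in KO and 39.2 CPM per kb in WT. Whether the fall of Cd1d1 or Cd1d2 differed from the change of these genes was not tested.

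Among 14 tested of 16 listed partners of iNKT selection 0 rose and 0 fell, and the median was 0.16 with the sex term. KO lay wholly above WT for 6 and wholly below for 2, against 27.9% and 28.4% of all tested genes. Myb, a transcription factor that iNKT precursors need in DP cells, had 536 and 776 CPM in KO and 1160 and 1161 CPM in WT, a log2 fold change of -0.85 that missed the threshold (adjusted p = 0.0536 in the sex-term edgeR fit). Tcf12, the E protein HEB, had 702 and 625 CPM in KO and 618 and 686 CPM in WT. Over the 8 pathway lists together, with each gene taken once and the members left out, 119 genes were tested, 1 rose and 1 fell, or 1.68%, where 3.21% of all tested genes were called in either direction. A share below that background is no result about the pathway.

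**Figure D4:**
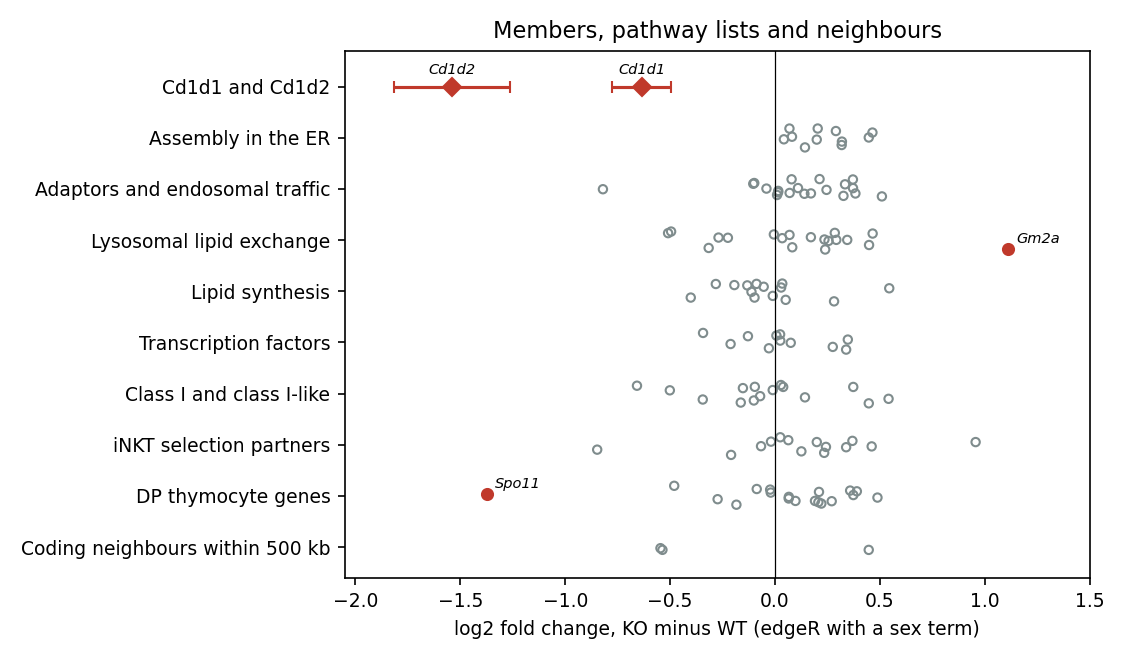
Log2 fold change, KO minus WT, from edgeR with a sex term (x axis) for the members (diamonds, bars are SE), the genes of each pathway list and the coding neighbours (rows); filled red symbols have an adjusted p under 0.05, open circles do not, and vertical scatter within a row carries no meaning. Apart from the members, Gm2a on the right and Spo11 on the left are the filled points.

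None of the coding genes around the locus passed either test. Within 500 kb of either member, 3 other protein coding genes passed the filter. Dclk2, a doublecortin-like kinase gene at chr3:86786151-86920852, is the nearest of these, on the side of Cd1d2. It had 94.2 and 113 CPM in KO and 145 and 156 CPM in WT, so that both KO libraries were below both WT libraries, with a log2 fold change of -0.55 ± 0.14 (SE) that missed the threshold (adjusted p = 0.0549 in the sex-term edgeR fit). Lrba, a vesicle-traffic gene beyond it at chr3:86224680-86782692, had 111 and 80.7 CPM in KO and 73.0 and 65.8 CPM in WT, higher in both KO libraries (log2 fold change 0.45, edgeR adjusted p = 0.100). Cd5l, a macrophage gene on the side of Cd1d1, had 12 and 0 counts in KO and 15 and 2 counts in WT.

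The genes with profiles most like each member were found as the smallest distance between log2 CPM over the 4 libraries, each gene centred on its own mean, among 9026 coding genes of at least 5 CPM. For Cd1d1 these were Fam219a, Zbtb49 and Homer3, a synaptic scaffold gene (distances of 0.03, 0.04 and 0.04). Their differences ran from -0.81 to -0.78 in the female pair and from -0.53 to -0.47 in the male pair, and none passed the threshold (adjusted p from 0.0638 to 0.135 in the sex-term edgeR fit). For Cd1d2 they were Ppp2r3d, a regulatory subunit gene of protein phosphatase 2A, Dtx3, a Deltex family gene, and Tmem191c (distances of 0.13, 0.14 and 0.16). All 3 fell in the sex-term edgeR fit (adjusted p = 0.0194, 0.0194 and 0.0172). They were picked for a profile like that of Cd1d2 in the same libraries, so these p-values are no separate support. Dtx3, for example, had 27.8 and 70.2 CPM in KO and 122 and 130 CPM in WT. On this scale Cd1d1 and Cd1d2 were 1.11 apart. With 4 libraries such a likeness is a description only.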

How the data were processed

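RNA-seq counts of 2 KO and 2 WT libraries, of RNA selected on poly-T beads per the labels, were analysed. The submitters' processing notes name GRCm38, Trim Galore 0.5.0, HISAT2, DESeq2, FastQC and featureCounts 1.6.4. Per the file headers the authors counted paired fragments with featureCounts 1.6.3 over exons of Ensembl release 98, and the deposited counts are not normalized; strand, multi-mapping and multi-overlap options were left at their defaults. The other column used, also deposited by the authors, is exon length in bases. Symbols matched 55154 of 56239 IDs in GENCODE M21 on GRCm38.

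In R 4.3.3, genes passing filterByExpr were scaled with TMM and tested with edgeR 4.0.16 (quasi-likelihood, Benjamini-Hochberg over all genes), without a covariate and with the replicate number as a term. DESeq2 1.42.0, limma 3.58.1 (voom), other scalings, no filter and leaving out each library were alternatives, and DESeq2 was run on all genes and on the filtered ones. Log2 CPM used a prior count of 2. The fits were also run on counts simulated with no sex or replicate effect. That run therefore cannot decide between the fits with and without the sex term.

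Named genes are the members, Chaf1b, up to 4 called genes or else the 2 most abundant of each pathway list, coding neighbours within 500 kb and the 3 likest genes per member. Members and lists were chosen with earlier results of these data known. One marker list is not reported here. Replicates of a genotype differed in sex and so came from different animals; p-values reflect library spread alone.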

Additional observations from a re-analysis of the deposited data

Results flagged for a closer look

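For 5 of the genes named, the difference of log2 CPM, KO minus WT, had opposite signs in the female and the male pair. For Ugcg the female pair gave -0.27 and the male pair 0.16. The values, female pair first, were -0.22 and 0.02 for Cers6, -0.06 and 0.08 for Elf1, 0.18 and -0.13 for Tcf12, and 0.04 and -0.01 for Ap3d1. The female difference minus the male one was -0.43 for Ugcg, -0.24 for Cers6, -0.14 for Elf1, 0.32 for Tcf12 and 0.0542 for Ap3d1. Each pair holds 1 KO and 1 WT library, so these differences between the sexes were not tested. Cd1d1 and Cd1d2 were lower in KO in both pairs.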

How the results depend on the processing

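Cd1d1, Cd1d2 and their sum kept a negative log2 fold change under all 12 alternatives. They were not called by edgeR with TMM, with the DESeq2 size factors, with library totals, with TMM without mitochondrial and ribosomal protein genes, or by limma-voom. With DESeq2's test on all 26019 genes with a count they were called (-0.62, -1.43 and -0.74), with 210 genes higher and 310 lower, and on the 15070 filtered genes, an alternative chosen after seeing the data, likewise (-0.62, -1.43 and -0.73), with 177 higher and 285 lower. With the replicate block they were called (-0.64, -1.54 and -0.76), with 152 genes higher, 331 lower and 2 list genes, against 1, 0 and 0 without it. With no filter on low counts edgeR called them at -0.63, -1.44 and -0.74, with 627 genes higher and 838 lower; the cause was not tested. The labels do not say that replicate numbers pair libraries. Deviations of same-numbered libraries from their genotype means had a correlation of 0.47 across all tested genes and 0.43 without Xist and Y-linked genes. Leaving out each library in turn gave -0.85 to -0.42 for Cd1d1, -2.21 to -0.93 for Cd1d2, -1.02 to -0.50 for the sum, 1 to 2518 genes higher and 0 to 2630 lower (2518 and 2630 without KO replicate 2, 171 and 349 without KO replicate 1), and a difference in the Cd1d2 share of -10.1 to -4.61 percentage points. Without KO replicate 1 Cd1d1 was not called (edgeR adjusted p = 0.0538) while Cd1d2 was (0.0138), without KO replicate 2 both were (1.11e-04 and 2.07e-05), and without either WT replicate neither was. A lone library of a genotype is then assumed to vary like those of the other. Limits are 2 libraries per genotype and reads common to both genes that were not counted.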
